A study of Mus musculus with 6 samples.

Results

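De novo fatty acid synthesis is the pathway by which the liver builds fatty acids from acetyl units, and 10 of its genes were followed here in the livers of mice on 2 diets. The genes were Acly, Acss2, Acaca, Acacb, Fasn, Me1, Elovl6, Scd1, Scd2 and Thrsp, and their rows were taken by gene symbol. All 10 were found among the 20673 genes listed in the deposited tables, and all 10 passed the filter on low counts that left 13105 genes for testing. RNA was sequenced from the livers of C57BL/6J mice, an inbred strain known to carry a deletion in Nnt, a mitochondrial enzyme that makes NADPH, with 3 livers from mice on a regular diet (RD) and 3 from mice given 3 days of a high-cholesterol diet (HCD). The HCD differed from the RD in more than cholesterol, since it also held added fat with cocoa butter and sodium cholate, a bile salt that helps cholesterol uptake, so the parts of the diet cannot be told apart. The age and sex of each animal are not given in the labels. The study used HCD feeding to ask how a short rise in cholesterol alters liver metabolism before sepsis, and these livers came from mice without surgery.

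Fatty acid synthesis starts in the cytosol with acetyl-CoA, which ATP citrate lyase makes from citrate and acetyl-CoA synthetase makes from acetate. Acetyl-CoA carboxylase turns it into malonyl-CoA, fatty acid synthase builds palmitate from it with NADPH, and elongases and desaturases then lengthen and desaturate the product. In liver the genes of the pathway are classical targets of SREBP-1c, a membrane-bound factor encoded by Srebf1 that must be cut to enter the nucleus, of ChREBP, which responds to sugar, and of the sterol receptor LXR, which also raises Srebf1 RNA.

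Read counts per library ranged from 13771630 to 23129576. The limit of detection was taken as 3 counts, which equalled 0.13 to 0.218 CPM by library size alone. CPM are counts scaled by library size, and the levels of genes in CPM also use edgeR's TMM factors. Totals of these levels therefore differ between libraries, and the limit is on a slightly different scale from them. The library of HCD replicate 1 stood apart from the other 5. It held 5032 counts of Xist, the RNA of the silenced X chromosome, against 0 in the others, and 0 counts over 4 Y-linked genes against 1075 to 2666 in the others. The study used mice of both sexes, so a sex difference and the diet overlap in this 1 liver, and results are also given without it. Over all genes tested, 428 (3.27%) were called, which means a Benjamini-Hochberg adjusted p under 0.05 in the quasi-likelihood test of edgeR. Of the genes tested, 255 (1.95%) were higher and 173 (1.32%) lower with HCD, and with library sizes alone as the scaling 158 were higher and 161 lower. DESeq2 called 992 of 14223 genes, or 6.97%. The hepatocyte markers were present in every liver, with a summed level of 96700 to 124142 CPM in RD and 100594 to 141746 CPM in HCD. Of these 8 markers edgeR called 0, DESeq2 called 1 higher and 1 lower, and 3 had an unadjusted p of 0.05 or less. Fgb, a fibrinogen chain with the smallest p of the list, was at 6390, 6389 and 6387 CPM in RD and 3409, 4314 and 4123 CPM in HCD (adjusted p = 0.075, edgeR). In whole liver RNA, fewer cells of a type and less RNA per cell cannot be told apart.

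The 250 bases upstream of the start site are shown for Acacb, Acss2 and Acly, the 3 members whose levels did not overlap between the diets, and for Fasn, whose levels did. The sequences are RefSeq's on GRCm38.p6, read 5′ to 3′ on the gene's strand, and the capitals mark the NF-Y box, CCAAT on either strand, a site often found beside SREBP sites.
Acacb (chr5:114165268-114165517, plus strand): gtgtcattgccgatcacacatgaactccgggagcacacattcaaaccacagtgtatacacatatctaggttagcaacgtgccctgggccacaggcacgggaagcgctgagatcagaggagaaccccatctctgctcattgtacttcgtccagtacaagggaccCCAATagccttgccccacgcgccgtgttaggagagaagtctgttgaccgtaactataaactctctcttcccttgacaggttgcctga
Acss2 (chr2:155517793-155518042, plus strand): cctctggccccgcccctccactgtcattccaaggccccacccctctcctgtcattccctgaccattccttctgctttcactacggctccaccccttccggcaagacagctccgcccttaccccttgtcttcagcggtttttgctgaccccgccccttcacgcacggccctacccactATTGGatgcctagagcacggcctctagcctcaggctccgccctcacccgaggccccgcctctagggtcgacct
Acly (chr11:100528001-100528250, minus strand): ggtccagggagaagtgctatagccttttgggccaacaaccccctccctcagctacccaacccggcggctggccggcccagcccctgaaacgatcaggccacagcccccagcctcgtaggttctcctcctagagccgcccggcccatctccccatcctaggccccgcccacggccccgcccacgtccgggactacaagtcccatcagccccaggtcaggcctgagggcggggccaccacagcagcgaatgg
Fasn (chr11:120824548-120824797, minus strand): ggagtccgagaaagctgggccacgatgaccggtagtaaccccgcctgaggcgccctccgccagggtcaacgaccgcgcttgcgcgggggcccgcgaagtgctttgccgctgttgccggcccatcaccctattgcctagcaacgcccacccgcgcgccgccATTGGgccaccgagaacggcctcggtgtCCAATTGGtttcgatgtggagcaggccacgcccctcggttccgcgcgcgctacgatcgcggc
The NF-Y boxes stood 87 bases before the start in Acacb and 73 bases before it in Acss2. Fasn held 3 boxes, at 90, 62 and 59 bases before the start, and the last pair overlap on opposite strands. The single box of Acly lay 38 bases after its start, outside the stretch shown. Of the 10 members 8 had an entry in the table of promoters, with 9 start sites, each window spanning 300 bases from 250 before to 50 after the start. An NF-Y box was found in 6 of the 9 member windows, and 37.4% of all 32851 promoter windows hold one. The core of the sterol regulatory element, searched as TCACNCCAC on both strands, was in 0 of the 9 and in 1.24% of all windows, and the E-box CACGTG was in 0 of the 9 and in 7.15% of all windows. These counts describe letters in these windows only.

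Srebf1 (ENSMUSG00000020538, chromosome 11) rose with HCD. Its level was 231, 179 and 269 CPM in RD replicates 1 to 3 and 824, 1020 and 1159 CPM in HCD replicates 1 to 3. The lowest HCD liver was above the highest RD liver. The rise was 4.42-fold, with a log2 fold change of 2.14 ± 0.21 (SE, n = 3 per diet; adjusted p = 0.00407, edgeR), and without HCD replicate 1 it was 2.27 (adjusted p = 0.00456). Reads were counted per gene, so the transcripts for SREBP-1a and SREBP-1c were not separated.

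Acacb and Acss2 fell with HCD, 0 of the 10 members were called higher, and the other 8 did not pass the test. The 2 called members, both lower, stand beside 3.27% of all genes tested called in either direction and 1.32% called lower. Their log2 fold changes were below 0 in 9 of the 10, and the median was -0.37, beside 0.0074 over all genes tested. The diets did not overlap in 3 of the 10, all lower with HCD, where 27.6% of all genes tested did not overlap in either direction and 13.7% did so lower with HCD. An unadjusted p of 0.05 or less was found for 4 members, Acacb, Acss2, Acly and Scd1, against 20.9% of all genes tested. DESeq2 called the same 4, beside 6.97% of all genes it tested, with Scd1 higher and the other 3 lower. Without HCD replicate 1 edgeR still called 2 members, and the median was -0.50. The other members were then at -0.52 for Acaca, -0.32 for Fasn, -0.12 for Scd2, -0.48 for Elovl6, -0.23 for Me1 and -0.51 for Thrsp, with 0 of these 6 called.

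**Figure D1:**
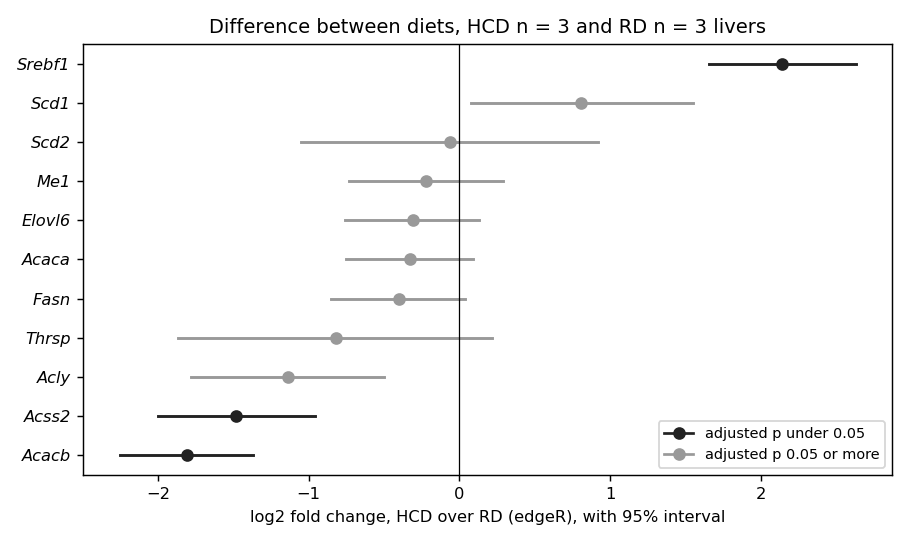
Log2 fold changes of HCD over RD (x axis) for the 10 fatty acid synthesis genes and Srebf1 (y axis), with points for edgeR's estimates, bars for 95% intervals and black for an adjusted p under 0.05 (n = 3 livers per diet). Srebf1 lies at 2.14, Acacb at -1.81 and Acss2 at -1.48, and Scd1 is the only member above 0.

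The 2 enzymes that supply cytosolic acetyl-CoA were both lower in every HCD liver than in any RD liver. Acss2 (ENSMUSG00000027605, chromosome 2), the synthetase that charges acetate, was at 192, 133 and 251 CPM in RD and 68.1, 61.5 and 77.3 CPM in HCD. It fell by 1.48 ± 0.23 on the log2 scale, or 2.78-fold (SE, n = 3 per diet; adjusted p = 0.0193, edgeR). Without HCD replicate 1 the log2 fold change was -1.47 (adjusted p = 0.0395), and the call was lost without RD replicate 1 (adjusted p = 0.0903) and without HCD replicate 3 (adjusted p = 0.0615). Acss2 shares 395 exon bases with Gss, which lies on the opposite strand and had 8088 counts over the 6 livers against 14873 for Acss2. The sources used here do not give the strand setting of the counting, so reads of the shared bases cannot be assigned.

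Acly (ENSMUSG00000020917, chromosome 11), which encodes ATP citrate lyase, was at 178, 218 and 386 CPM in RD and 100, 120 and 136 CPM in HCD. The RD livers were spread widely, with replicate 3 far above the other two, and the HCD livers were close together. The log2 fold change was -1.14 ± 0.28 (SE), with a 95% interval of -1.78 to -0.50, and the adjusted p of 0.0676 in edgeR's test missed the threshold. DESeq2 called it (adjusted p = 0.000189), and without HCD replicate 1 edgeR gave -1.03 (adjusted p = 0.125). Without RD replicate 3 the log2 fold change was -0.74 (adjusted p = 0.102).

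The 2 acetyl-CoA carboxylases differed from each other. Acacb (ENSMUSG00000042010, chromosome 5) encodes the form at the mitochondrial surface, whose malonyl-CoA restrains fatty acid oxidation, and was at 71.2, 88.5 and 110 CPM in RD and 23.1, 30.1 and 23.9 CPM in HCD. All 3 HCD livers were far below all 3 RD livers. Acacb fell by 1.81 ± 0.19 on the log2 scale, or 3.5-fold (SE; 95% interval -2.25 to -1.37, adjusted p = 0.00523, edgeR), and it was called in all 16 alternative fits. Without HCD replicate 1 the log2 fold change was -1.73 (adjusted p = 0.0135).

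Acaca (ENSMUSG00000020532, chromosome 11), the cytosolic form that feeds synthesis, was at 81.3, 98.4 and 86.7 CPM in RD and 87.8, 54 and 69.9 CPM in HCD. HCD replicate 1 lay within the RD range, so the diets overlapped. The log2 fold change was -0.33 ± 0.18 (SE), with a 95% interval of -0.75 to 0.09 (adjusted p = 0.347, edgeR). Gm5182, a processed pseudogene, matches Acaca RNA at 99.2% over 6118 bases and had 943 counts against 8479 for Acaca, so some reads may be split between the genes.

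Per length of summed annotated exons the 2 carboxylases also stood in a different relation in each diet. The ratio of Acacb to Acaca in FPKM, which scale fragments by gene length and library, was 1.55, 1.59 and 2.25 in RD and 0.466, 0.989 and 0.607 in HCD. The ratios of the diets did not overlap. In FPKM Acacb was the higher of the pair in the RD livers and the lower in HCD replicates 1 and 3. In HCD replicate 2 the pair were nearly equal, closer than the reads that Acaca may share with Gm5182 allow to order. The order within a diet rests on the lengths used, 17074 bases for Acaca and 9632 for Acacb. In CPM Acacb was below Acaca in RD replicates 1 and 2, at 71.2 and 88.5 against 81.3 and 98.4. The ratio was chosen after the values were seen, so it carries no test.

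Fasn (ENSMUSG00000025153, chromosome 11), the multienzyme that builds palmitate, was at 535, 677 and 475 CPM in RD and 373, 393 and 508 CPM in HCD. The diets overlapped, since HCD replicate 3 was above RD replicate 3. The log2 fold change was -0.40 ± 0.19 (SE), with a 95% interval of -0.85 to 0.038 (adjusted p = 0.275, edgeR), so a rise of the size of that of Srebf1 lies outside the interval. Me1 (ENSMUSG00000032418, chromosome 9), the malic enzyme that makes NADPH for the synthase, was at 193, 308 and 177 CPM in RD and 196, 169 and 216 CPM in HCD. RD replicate 2 was the highest liver and the other 5 mixed, with a log2 fold change of -0.22 ± 0.22 (SE; 95% interval -0.73 to 0.29).

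Elovl6 (ENSMUSG00000041220, chromosome 3), the elongase that takes palmitate to stearate, was at 85, 74.8 and 83.4 CPM in RD and 79.4, 46.3 and 70.1 CPM in HCD. Its log2 fold change was -0.31 ± 0.19 (SE; 95% interval -0.76 to 0.13), with HCD replicate 1 inside the RD range. Thrsp (ENSMUSG00000035686, chromosome 7), a small regulatory protein of lipogenic tissue, was at 164, 121 and 125 CPM in RD and 40, 44.1 and 148 CPM in HCD. HCD replicate 3 was in the RD range and more than 3-fold above the other HCD livers. The log2 fold change of Thrsp was -0.82 ± 0.46 (SE; adjusted p = 0.345, edgeR), and without HCD replicate 3 it was -1.71 (adjusted p = 0.0196).

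The desaturases Scd1 and Scd2, which place the double bond of oleate, lie close together on chromosome 19. Scd1 (ENSMUSG00000037071), the main form of liver, was at 4646, 6522 and 10183 CPM in RD and 8871, 14692 and 13982 CPM in HCD. Of the HCD livers 2 were above every RD liver, and HCD replicate 1 was below RD replicate 3. The log2 fold change was 0.81 ± 0.32 (SE), with a 95% interval of 0.076 to 1.55, and edgeR's adjusted p was 0.199. DESeq2 gave an adjusted p of 0.0277, and without HCD replicate 1 edgeR's log2 fold change was 1.01 (adjusted p = 0.119).

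Scd2 (ENSMUSG00000025203), the form better known from brain, was at 6.68, 6.07 and 20.1 CPM in RD and 11.3, 9.44 and 10.9 CPM in HCD. RD replicate 3 was above every other liver, and the 3 HCD livers lay between it and the other RD livers. The log2 fold change was -0.062 ± 0.43 (SE), and it was 0.72 without RD replicate 3 (adjusted p = 0.161). Scd2 RNA matches Scd1 RNA at 94.2% over 896 bases. Scd1 had 985816 counts over the 6 livers and Scd2 1186, so misassigned Scd1 reads could form part of the Scd2 count.

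**Figure D2:**
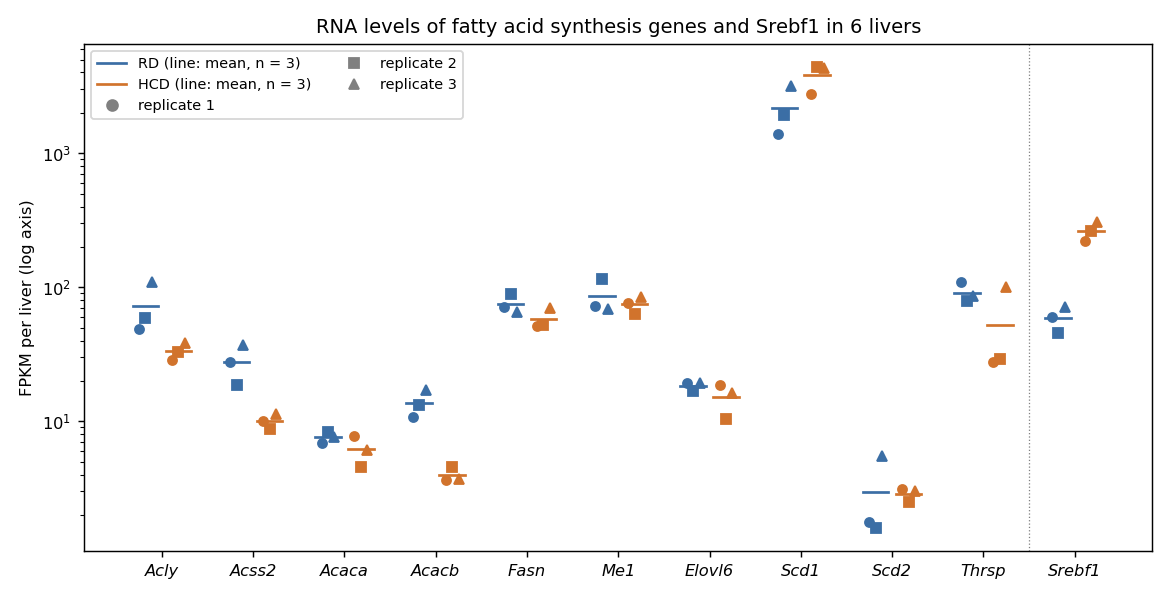
FPKM per liver on a log axis (y) for the 10 fatty acid synthesis genes and Srebf1 (x), with RD in blue, HCD in orange, a symbol for each replicate and a line at the mean of 3 livers. Acly, Acss2 and Acacb do not overlap between the diets, Srebf1 is above RD in every HCD liver, and Thrsp of HCD replicate 3 lies in the RD range.

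The members spanned a wide range of levels per length. The length of a gene is here the sum of all its annotated exons, which may exceed any single transcript. The order of genes therefore depends on it. Acss2 was given 10163 bases and Acly 5279, and their means in RD were 192 and 261 CPM. Scd1 was the highest in both diets, at 2160 ± 897 FPKM in RD and 3832 ± 923 FPKM in HCD (SD, n = 3), and Scd2 the lowest, at 2.97 ± 2.21 and 2.88 ± 0.332 FPKM. In RD the next levels were Thrsp at 91.1 ± 15.6, Me1 at 85.4 ± 25.5, Fasn at 74.8 ± 12.4 and Acly at 72.5 ± 32.3 FPKM, and each overlapped its neighbour in this order. Acss2 at 27.7 ± 9.11, Elovl6 at 18.4 ± 1.51 and Acacb at 13.7 ± 3.2 FPKM also overlapped as neighbours, and Acaca was below them at 7.59 ± 0.67 FPKM. In HCD, Thrsp stood below Me1 and Fasn, at 52.6 ± 42 FPKM against 74.8 ± 10.5 and 57.6 ± 10.4 FPKM, and its range overlapped both. Acacb stood below Acaca, with 3.95 ± 0.496 against 6.15 ± 1.59 FPKM, and Elovl6 stood above Acss2, at 15.1 ± 4.23 against 10.1 ± 1.33 FPKM with overlap. Srebf1 was at 58.9 ± 13 FPKM in RD and 264 ± 43.9 FPKM in HCD, where it was above every member but Scd1.

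Most of the members' counts were Scd1. It made up 75.5 to 85.6% of them in the RD livers and 90.1 to 94.1% in the HCD livers. Scd1 took 0.479, 0.679 and 1.01% of all counts in RD and 0.946, 1.44 and 1.24% in HCD. The other 9 members together took 0.155, 0.179 and 0.171% of all counts in RD and 0.104, 0.0908 and 0.112% in HCD, without overlap. The ratio of Scd1 to Fasn in FPKM was 19.7, 21.8 and 48.6 in RD and 53.9, 84.6 and 62.3 in HCD, also without overlap. These shares and the ratio were chosen with the values in view and carry no test.

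Each member was next set against Srebf1 in the same liver, as the log2 ratio of the 2 levels in CPM with 0.5 added. The ratio was lower with HCD in all 10 members, and for none did the diets overlap. This count follows the rise of Srebf1 itself, since 96.9% of all other genes tested also had a lower ratio to Srebf1 without overlap, so it says little about the members. The sizes differed among them. Acacb had log2 ratios of -1.69, -1.01 and -1.29 in RD and -5.13, -5.06 and -5.57 in HCD, a difference of -3.92, or 15.2-fold less Acacb per Srebf1. Acss2 was 11.9-fold lower against Srebf1, Thrsp 9.33-fold, Acly 9.26-fold and Fasn 5.85-fold. Scd1 kept closest to Srebf1, with log2 ratios of 4.32, 5.18 and 5.24 in RD and 3.43, 3.85 and 3.59 in HCD, a difference of -1.29 or 2.45-fold. The exact two-sided permutation p was 0.1 for each member, also after adjustment over the 10, and 0.1 is the smallest that 3 against 3 livers can give. The 10 ratios share the Srebf1 values and are not independent.

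**Figure D3:**
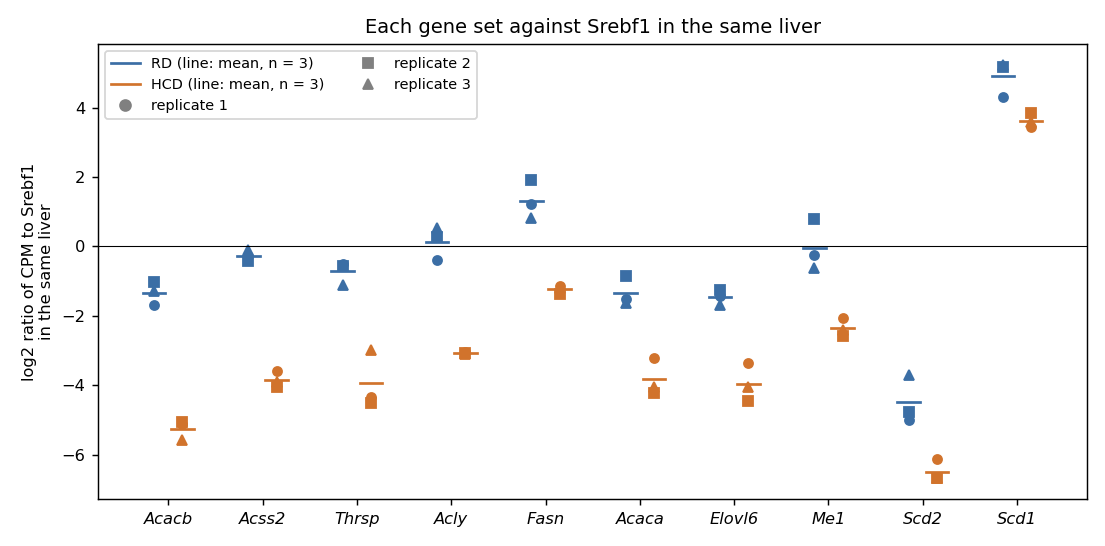
Log2 ratio of each gene's CPM to that of Srebf1 in the same liver (y axis) for the 10 genes (x axis, ordered by the size of the difference), with RD in blue, HCD in orange, a symbol for each replicate and a line at the mean of 3 livers. All 10 genes lie lower in HCD, from a difference of -3.92 for Acacb to -1.29 for Scd1.

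Genes with the most similar pattern over the 6 livers were found by the mean absolute difference of log2 deviations, among the 9116 genes that averaged at least 5 CPM. Nearest to Acacb were Lss at 0.131, the lanosterol synthase of the cholesterol pathway, Rdh11 at 0.201, a retinol dehydrogenase, and Stard4 at 0.217, a cholesterol carrier. Nearest to Acss2 were Pmvk at 0.105, a kinase of the mevalonate pathway, Rdh11 at 0.116 and Olfr1033, annotated as an olfactory receptor, at 0.165. Acly was rank 14 from Acss2 and rank 39 from Acacb, and Acss2 was rank 16 from Acacb. Nearest to Fasn were Gart at 0.0519, a purine synthesis enzyme, Anks4b at 0.0568 and Pard6b at 0.0592, and the closest member was Me1 at rank 226. Nearest to Srebf1 were Inmt at 0.148, a methyltransferase, Fabp2 at 0.16, a fatty acid binding protein, and Gm3362 at 0.201. Scd1 was the closest member to Srebf1, at rank 222, and Acacb the farthest, at rank 9038.

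The factors that act on the pathway were followed as a list of 19 genes for SREBP, LXR, ChREBP and their partners. Of these, edgeR called 1 higher and 3 lower, and the median log2 fold change was -0.12. DESeq2 called 2 higher and 4 lower, and without HCD replicate 1 edgeR called 2 higher and 1 lower. Srebf1 was the gene called higher by edgeR with all 6 livers. Insig2, named after its values were seen, was at 232, 169 and 242 CPM in RD and 301, 408 and 460 CPM in HCD. Its log2 fold change was 0.86 ± 0.21 (SE; adjusted p = 0.0636, edgeR). Insig1, which holds the SREBP complex in the endoplasmic reticulum and is itself an SREBP target, was at 286, 416 and 263 CPM in RD and 110, 149 and 163 CPM in HCD, and fell by 1.20 ± 0.22 on the log2 scale (SE; adjusted p = 0.0307, edgeR). Srebf2, which encodes the SREBP of cholesterol synthesis, was at 102, 75.1 and 71.4 CPM in RD and 46.1, 43.4 and 33.4 CPM in HCD, and fell by 1.02 ± 0.19 (SE; adjusted p = 0.0296). The third, named as the remaining call of the list, was Rxra, the partner receptor of LXR (log2 fold change -0.68, adjusted p = 0.0449). Insig1 and Rxra lost their calls without each of the 6 livers in turn, and Srebf2 kept its call only without HCD replicate 1. Mlxipl and Nr1h3 are named after their values were seen. Mlxipl, which encodes ChREBP, was at 216, 254 and 242 CPM in RD and 226, 194 and 237 CPM in HCD, and Nr1h3, which encodes the liver LXR, was at 108, 95 and 97.6 CPM in RD and 98.7, 117 and 120 CPM in HCD.

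The sterol targets of SREBP2 fell as a list, with 17 of 17 called lower, 17 of 17 without overlap and a median log2 fold change of -2.03. Sqle, the squalene epoxidase, was at 140, 108 and 88.8 CPM in RD and 5.41, 7.24 and 4.05 CPM in HCD, and fell by 4.33 ± 0.26 on the log2 scale (SE; adjusted p = 0.000736, edgeR). Fdps, which makes farnesyl diphosphate, was at 8.75, 5.72 and 2.3 CPM in RD and 0.202, 0.207 and 0.243 CPM in HCD, where it was near the limit of detection. Acacb at -1.81 and Acss2 at -1.48 lay within the range of these 17 genes, as did Acly at -1.14, and the other 7 members lay above that range. With each liver left out, 11 to 16 of the 17 were called, the lowest count without RD replicate 1 and without RD replicate 2, and 16 were called without HCD replicate 1.

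Of 7 LXR targets outside lipogenesis, edgeR called 3 higher and 0 lower, beside 1.95% and 1.32% of all genes tested. DESeq2 called 4 higher and 0 lower. The log2 fold change was above 0 in 6 and below 0 in 1, with a median of 0.91. Abca1 and Pltp, named after their values were seen, were at 0.11 (adjusted p = 0.831, edgeR) and -0.25 (adjusted p = 0.735). Abcg5, a half-transporter that exports sterols into bile, was at 40, 33.6 and 85.5 CPM in RD and 321, 326 and 420 CPM in HCD, and rose by 2.74 ± 0.35 on the log2 scale (SE; adjusted p = 0.0104, edgeR). Its partner Abcg8 was at 61.4, 60.6 and 113 CPM in RD and 465, 521 and 480 CPM in HCD, and rose by 2.64 ± 0.26 (SE; adjusted p = 0.00407). The third, also named to complete the calls, was Abcg1, a sterol exporter (log2 fold change 2.10, adjusted p = 0.0258). Abcg8 was called without each liver in turn, Abcg5 without all but RD replicate 1, and Abcg1 without RD replicate 3 or HCD replicate 1 but not without any of the other 4 livers. Of 9 ChREBP targets outside lipogenesis, 0 were called by edgeR and 3 by DESeq2 (2 higher and 1 lower), with 3 at an unadjusted p of 0.05 or less, 8 log2 fold changes above 0 and a median of 0.57. Without HCD replicate 1 the median was 0.11, with 5 above 0 and 4 below. The one with the smallest p was Gpd1, a glycerol phosphate dehydrogenase and the 1 gene of the list below 0, at 345 ± 68.6 CPM in RD and 232 ± 16.5 CPM in HCD (SD, n = 3; adjusted p = 0.121, edgeR).

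**Figure D4:**
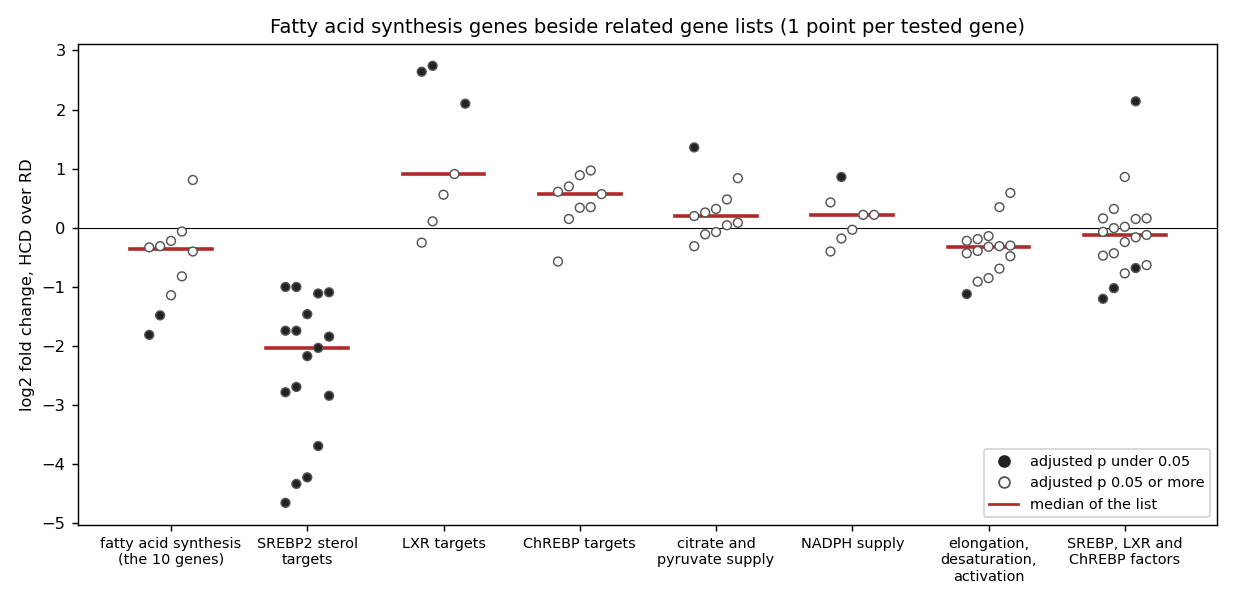
Log2 fold change of HCD over RD (y axis) for each tested gene of the 10 fatty acid synthesis genes and 7 related lists (x axis), with filled points for an adjusted p under 0.05 and a red line at the median of each list. All 17 SREBP2 sterol targets are filled and below 0 with a median of -2.03, and the 10 fatty acid synthesis genes have a median of -0.37.

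The steps around the pathway held 1 called gene or none in each list in edgeR's main fit, beside 3.27% called among all genes tested. DESeq2 called 2 higher of 11 genes for citrate and pyruvate supply and 2 higher of 8 for fatty acid oxidation. Without the filter on low counts edgeR called as many in each. For the supply of citrate and pyruvate, 1 of 11 genes rose, Mpc1, a subunit of the mitochondrial pyruvate carrier, from 22.1 ± 0.845 to 56.6 ± 16.9 CPM (SD, n = 3; adjusted p = 0.0228, edgeR). For NADPH supply, 1 of 7 tested genes rose, Pgls of the pentose phosphate pathway, from 48.3 ± 5 to 87.8 ± 19 CPM (adjusted p = 0.0387). For elongation, desaturation and activation, 1 of 15 fell, the desaturase Fads1, from 538 ± 104 to 247 ± 70 CPM (adjusted p = 0.0453), and 13 of the 15 log2 fold changes were below 0, with a median of -0.32. In that list Elovl3, an elongase named after its values were seen, was at 1.82 CPM in HCD replicate 1 and at 281 to 551 CPM in the other 5 livers. Of 12 modifiers of the carboxylases and the synthase, 0 were called by edgeR or DESeq2, 1 passed 0.05 before adjustment, and the one with the smallest p was Hlcs, the ligase that attaches biotin to the carboxylases, at 12.7 ± 3.09 CPM in RD and 8.03 ± 0.854 CPM in HCD (adjusted p = 0.152, edgeR).

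Mitochondrial fatty acid synthesis, a separate pathway, had 1 of 5 genes called, Ndufab1, its acyl carrier protein, which rose from 42.6 ± 1.98 to 72.5 ± 14.3 CPM (SD, n = 3; adjusted p = 0.043, edgeR). Of 5 tested glycerolipid genes, 1 fell, Gpam, the first acyltransferase of triglyceride synthesis, from 120 ± 8.51 to 57.8 ± 8.4 CPM (adjusted p = 0.013). Of 8 genes of fatty acid oxidation, 1 rose, Ehhadh, the bifunctional enzyme of peroxisomes, from 229 ± 25.2 to 793 ± 285 CPM (adjusted p = 0.0184). Of 7 genes of insulin signalling, 0 were called by edgeR or DESeq2, 2 passed 0.05 before adjustment, and Insr, the insulin receptor, was at 121 ± 7.89 CPM in RD and 89.6 ± 13.2 CPM in HCD (adjusted p = 0.136, edgeR). Mpc1, Pgls, Fads1, Ndufab1, Gpam and Ehhadh all lost their calls without RD replicate 1 and without RD replicate 2. All but Gpam also lost them without RD replicate 3, and all but Ehhadh without HCD replicate 3. Pgls and Fads1 lost theirs without HCD replicate 2, and Ndufab1 without HCD replicate 1, so that Pgls, Fads1 and Ndufab1 each kept the call in 1 of 6 such fits. Over the 16 alternative fits Fads1 was called in 5, Pgls in 7, Ndufab1 in 8, Mpc1 in 11, Ehhadh in 12 and Gpam in 13.

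Genes of other cells and of the day cycle were measured beside these results. Of 12 clock genes tested, 0 were called by edgeR and 5 by DESeq2, and 8 did not overlap between the diets (66.7%, against 27.6% of all genes tested) and 8 had an unadjusted p of 0.05 or less. Without HCD replicate 1 edgeR called 3 clock genes (1 higher and 2 lower), without RD replicate 3 it called 1, and without the filter on low counts 5. Nr1d2, a repressor of the clock with the smallest p of the list, was at 32.2, 32.5 and 40 CPM in RD and 22.1, 19.2 and 12.8 CPM in HCD (adjusted p = 0.0522, edgeR). Liver lipogenesis follows feeding and the time of day. The study followed food intake by diet group, but neither intake nor the hour of collection is given for each of these livers, and the part of either in the members' values was not tested.

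Among adipocyte markers, Adipoq, Cfd and Cidea, named as defining genes of that cell after their values were seen, were at most 0.144 CPM in every liver, at or under the limit of detection, and the only one tested was Fabp4, which other cells also express, at 2.58 to 4.47 CPM in RD and 3.03 to 8.59 CPM in HCD. Kupffer cell markers, 8 of 8 with log2 fold changes above 0 and 0 called by edgeR, but 3 called higher by DESeq2 and 1 by edgeR without the filter, summed to 132 to 226 CPM in RD and 187 to 413 CPM in HCD, and C1qb had the smallest p (adjusted p = 0.0995, edgeR). Endothelial markers summed to 91.5 to 162 CPM in RD and 121 to 197 CPM in HCD, where edgeR called 0 of 7 and DESeq2 called 1 higher. Cdh5, an adhesion protein of endothelium with the smallest p, was at 12 ± 3.54 CPM in RD and 22 ± 6.37 CPM in HCD (SD, n = 3; adjusted p = 0.126, edgeR). Without HCD replicate 1, the Kupffer list had 7 log2 fold changes above 0 and 1 below with a median of 0.62, against 0.86 with it, and the endothelial list had 4 above and 3 below with a median of 0.11, against 0.28. Stellate cell markers summed to 211 to 232 CPM in RD and 230 to 344 CPM in HCD, with Dcn, a matrix proteoglycan, at 104 ± 1.6 and 151 ± 44.1 CPM (adjusted p = 0.191, edgeR). Cholangiocyte markers summed to 37.4 to 91.9 CPM in RD and 64.6 to 98.1 CPM in HCD, with Krt19, a keratin, at 1.57 ± 1.07 and 3.88 ± 1.72 CPM (adjusted p = 0.296, edgeR). Other leukocyte markers summed to 6.44 to 11.8 and 9.97 to 14.8 CPM, with S100a9, a protein of neutrophils, at 1.31 ± 0.529 and 2.23 ± 0.513 CPM (adjusted p = 0.408, edgeR). In these last 3 lists edgeR and DESeq2 called 0, and 1 stellate marker had an unadjusted p of 0.05 or less, as did 1 endothelial and 4 Kupffer cell markers. Red cell markers summed to 138 to 239 CPM in RD and 177 to 468 CPM in HCD, and 2 of 5 tested rose, Hba-a1 (log2 fold change 2.41, adjusted p = 0.0217, edgeR) and Hbb-bs (2.28, adjusted p = 0.0223), neither of which was called without RD replicate 1, RD replicate 2 or HCD replicate 3. The part of these cells in the members' values was not tested.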

How the data were processed

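Liver RNA of 3 RD and 3 HCD mice was sequenced with 1 library per liver, and groups were taken from the labels. The 10 genes, the other gene lists and the tests were chosen with earlier results of these data known. The authors deposited read counts per gene, whole numbers without normalization, and the submitters' processing notes name STAR, HTSeq, DESeq2, edgeR and the build GRCm39, without roles. The authors also deposited FPKM, normalized by gene length and library, which were used for levels between genes. The gene lengths implied by the FPKM equalled those of GENCODE M21 (GRCm38) within 0.1% for 95.5 to 95.9% of genes, so only chromosomes are given for genes, and promoter sequences carry RefSeq's GRCm38.p6. The authors' columns of fold changes and p-values were not used.

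Counts were fitted in edgeR 4.0.16 (R 4.3.3; filterByExpr, TMM factors 0.886 to 1.07, quasi-likelihood test of diet, no covariate). P-values were adjusted by Benjamini-Hochberg over 13105 genes, and a gene is called at an adjusted p under 0.05. The biological coefficient of variation was 27.8%. Libraries held 13771630 to 23129576 counts, and limits from 3 counts cover counting error only. Single ratios used an exact permutation test (scipy 1.17.1, 20 assignments). RNA copies of the members were searched with minimap2 2.31 (at least 200 bases and 90% identity). The alternatives were DESeq2 1.42.0, other scalings and filters, limma-trend 3.58.1 on log2 FPKM, a length trend, a replicate block, other thresholds and each liver left out. The fit was checked on simulated counts.

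Named were the 10 members and Srebf1, from each other list the called genes with the 2 largest rises and the 2 largest falls (with none called, the smallest p), and, for Fasn, Srebf1, Acacb and Acss2, the 3 nearest patterns. Genes named outside this rule are stated as such. The labels describe separate livers. The p-values of edgeR set the difference of the diets against the spread between livers, which was estimated with information shared across genes.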

Additional observations from a re-analysis of the deposited data

How the results depend on the processing

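Acacb and Srebf1 were called in all 16 alternative fits, and the median log2 fold change of the 10 members stayed between -0.50 and -0.23. The count of 10 lower ratios to Srebf1 is fixed when a liver is left out, since the diets do not overlap, and adds nothing there. With 3 livers per diet the intervals of the 8 members not called are wide, and a p above the threshold does not show that they were equal. The number of members called was 4 with DESeq2 and 4 when p was left unadjusted (0.05 or less), 3 without a filter on low counts (Acly was added, adjusted p = 0.0168), 1 at an adjusted p under 0.01, and 1 to 2 with each liver left out. The lower count came without RD replicate 1, which left Acacb, and without HCD replicate 3 Thrsp took the place of Acss2. Over all genes the number called was 428, against 992 with DESeq2, 649 without a filter, 251 with the length trend removed, 40 at an adjusted p under 0.01, 2739 with unadjusted p, and 36 to 335 with each liver left out, the lowest without RD replicate 1, 51 without RD replicate 2, 146 without RD replicate 3 and 103 without HCD replicate 3. Scd2 changed sign, to 0.10 and 0.18 on log2 of FPKM plus 1 and plus 0.1, and to 0.017 with the length trend removed. Without each liver in turn it ranged from -0.35 to 0.72, and was 0.0067 without HCD replicate 2. Me1 ranged from -0.37 to 0.06, above 0 without RD replicate 2. Scd2 and Me1 were called in none of these fits, and the cause of these shifts was not tested.

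The labels give the same replicate numbers to both diets and state no pairing. Deviations of same-numbered livers correlated at -0.08, 0.09 and -0.04 across genes. These values show little shared deviation by number, but they cannot tell whether livers were handled in pairs. With the replicate block 136 genes were called over all genes and 2 members, and Scd2 was at 0.17.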
